A study of Rattus norvegicus with 3 samples.

Results

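The CC chemokines described here are 10 secreted attractants of leukocytes, Ccl2, Ccl3, Ccl4, Ccl5, Ccl6, Ccl7, Ccl12, Ccl17, Ccl20 and Ccl22, read in single cells of the injured rat spinal cord. They were picked by symbol from the deposited feature tables, where all 10 were found among 25199 features. The study made 1 single-cell library for each of 3 conditions, and every condition was an injection at the injury site. The treated groups received G-HD or MPG-HD, preparations whose composition the labels do not spell out, and the control group received phosphate-buffered saline (PBS). Per the labels, all animals were wild type rats aged 6 to 8 weeks, 5 animals stood behind each condition, and the tissue was a 5-mm length of cord centred on the injury. Whether the 5 animals were pooled before or after dissociation is not stated, and the time after injury is not given in the sources used here.

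CC chemokines are small proteins that bind G protein-coupled receptors on leukocytes and draw them along a gradient. In injured cord, resident microglia and incoming macrophages are known sources, and the ligands differ in the cells they call. Ccl2, Ccl7 and Ccl12 attract monocytes through Ccr2, Ccl3, Ccl4 and Ccl5 draw macrophages and T cells, Ccl17 and Ccl22 share the receptor Ccr4, and Ccl20 is the ligand of Ccr6. Ccl6 is a rodent gene whose product attracts myeloid cells through Ccr1 in mice.

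After filtering, 2342 G-HD cells, 2087 MPG-HD cells and 1374 PBS cells remained, with medians of 9248, 10425 and 10294 unique molecular identifiers (UMIs, each 1 captured transcript) per cell. Clusters were formed without the CC ligands and were named by marker genes. The classes compared between libraries were macrophage-like cells (700 G-HD, 453 MPG-HD and 341 PBS cells), microglia-like cells (294, 369 and 262), fibroblast-like cells (237, 168 and 136), Schwann-like cells (202, 209 and 96) and T-like cells (105, 53 and 51). Of the markers read for each name, 9 of 11 macrophage, 7 of 10 microglia, 7 of 7 fibroblast, 6 of 6 T cell and 5 of 7 natural killer (NK) cell markers were present in 20% or more of the cells in their class. The 3 macrophage-like clusters differed in their leading genes, which were Mmp12 and Fabp4 in cluster 2, C1qa and Pf4 in cluster 4, and class II genes such as RT1-Db1 in cluster 7. The libraries shared few cell barcodes, 8 between G-HD and PBS, 5 between MPG-HD and PBS and 8 between MPG-HD and G-HD. With 1 library per condition there is no replicate, so no test was run, and every interval below is an exact 95% interval that covers counting error only. A difference between animals, injections or cell preparations cannot be told apart from a difference between treatments, and fewer cells of a kind in a sum cannot be told apart from less RNA per cell.

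Levels are given as CPM, the UMIs of a gene per 1000000 UMIs of all cells of a class summed within a library. Ccl3 and Ccl4 were by far the most abundant members, with 52369 and 32262 UMIs over the 3 libraries. Ccl2 followed with 13914, Ccl6 with 7287, Ccl5 with 5584 and Ccl7 with 3519 UMIs. By class, microglia-like cells held 57400 member UMIs and macrophage-like cells 34501, and T-like (4184), fibroblast-like (3230), NK-like (2688) and neutrophil-like cells (2520) held far fewer. The other 4 members were rare, at 338 UMIs for Ccl17, 264 for Ccl12, 122 for Ccl20 and 121 for Ccl22. For 8 of the 10 members, macrophage-like and microglia-like cells together held more than 50% of the UMIs, and the exceptions were Ccl5, held by T-like and NK-like cells, and Ccl20, held by fibroblast-like cells.

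**Figure D1:**
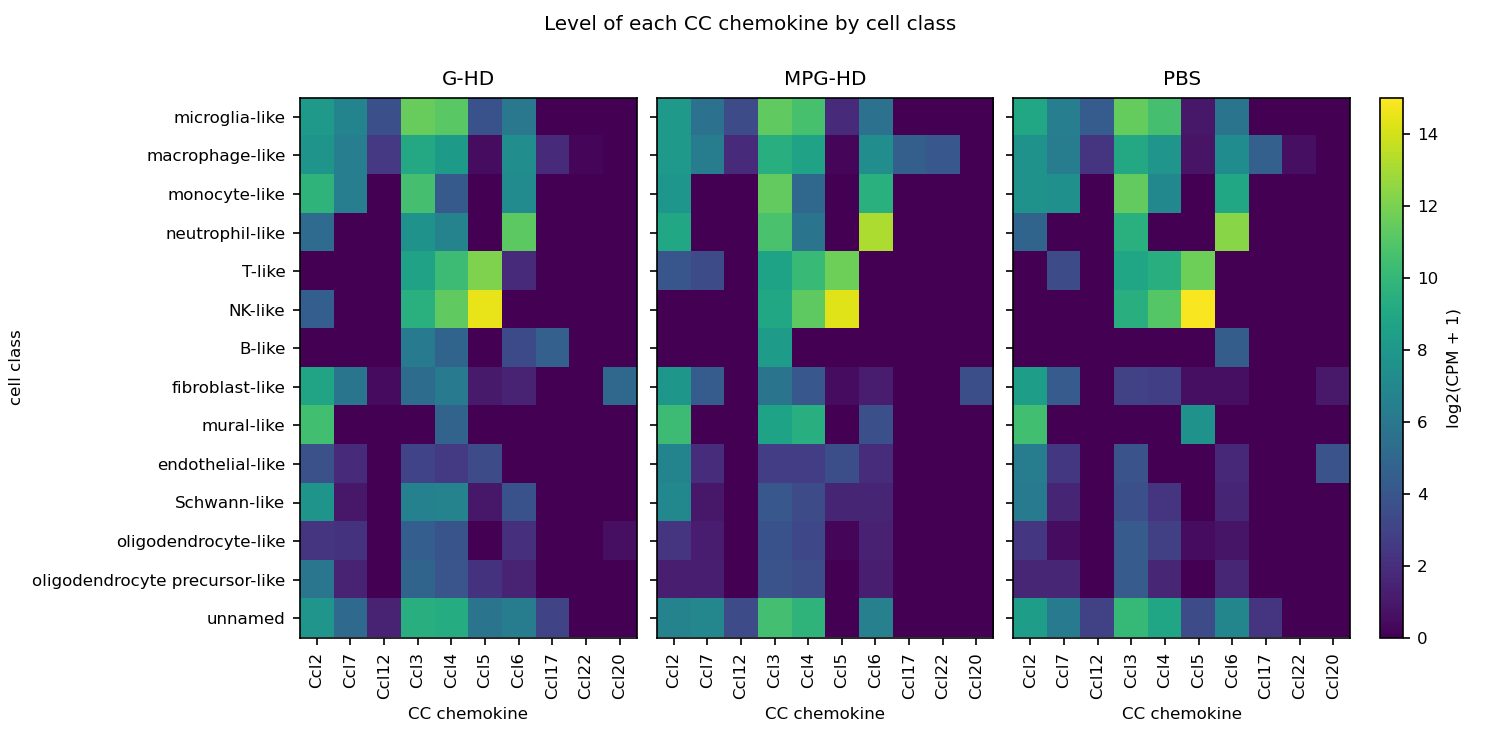
Level of each member by cell class and library, as a colour on the log2(CPM + 1) scale, with cell classes as rows, members as columns and a panel each for G-HD, MPG-HD and PBS. Ccl5 stands out in NK-like and T-like cells, Ccl6 in neutrophil-like cells, Ccl3 in microglia-like cells and Ccl2 in mural-like cells.

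**Figure D2:**
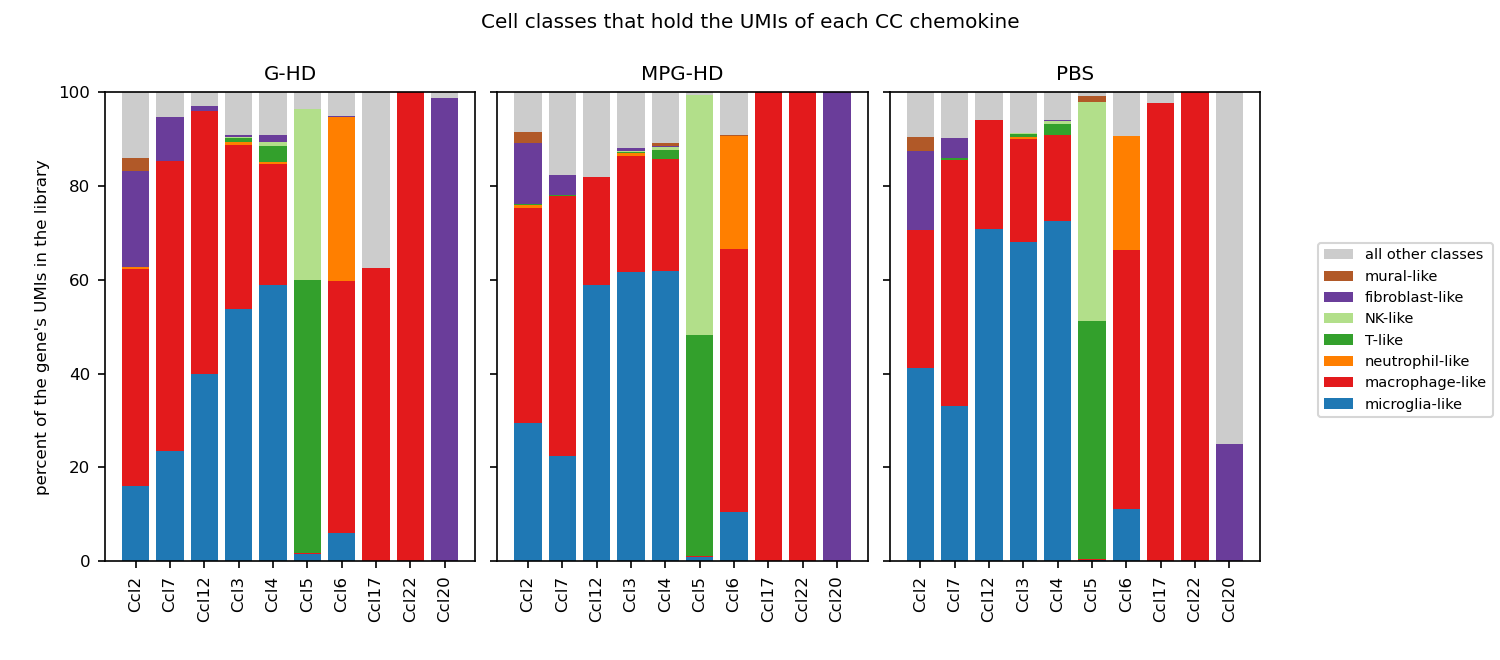
Share of each member's UMIs by source class, in percent, with a stacked bar per member and a panel each for G-HD, MPG-HD and PBS. Microglia-like cells held 60.5% of all Ccl3 UMIs and 62.8% of all Ccl4 UMIs, and macrophage-like cells held 41.6% of all Ccl2 UMIs.

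Ccl3 and Ccl4, macrophage inflammatory proteins whose genes lie side by side on rat chromosome 10, were mainly transcripts of the microglia-like class. Microglia-like cells held 53.7% of the Ccl3 UMIs in G-HD, 61.6% in MPG-HD and 68.1% in PBS, although they made up a smaller part of the cells than macrophage-like cells did in every library. The Ccl3 level of the summed microglia-like cells was 2866 CPM in G-HD, 2624 in MPG-HD and 2852 in PBS. These 3 levels stayed close together, with a mean of 2781 ± 136 CPM (SD over the 3 libraries, which are 3 conditions and not replicates). A typical microglia-like cell held a median of 26.5 Ccl3 UMIs in G-HD, 29 in MPG-HD and 29.5 in PBS, so the transcript was spread over most of the class. A Ccl3 UMI was seen in 94.9% (91.7 to 97.1) of the G-HD, 98.6% (96.9 to 99.6) of the MPG-HD and 95.8% (92.6 to 97.9) of the PBS cells of this class. It was also seen in 12.4%, 14.1% and 13.8% of oligodendrocyte-like cells of the same libraries, a class taken as the free-RNA background, at similar median depths (11609, 12045 and 10782 UMIs against 11668, 12624 and 11476 in microglia-like cells). With every cell thinned to 1000 UMIs, the Ccl3 shares were 73.7%, 81.3% and 77.8% in microglia-like cells and 0.676%, 2.20% and 1.04% in oligodendrocyte-like cells. Macrophage-like cells had 537 CPM of Ccl3 in G-HD, 701 in MPG-HD and 536 in PBS. The levels of monocyte-like cells, at 2273 ± 655 CPM, overlapped those of microglia-like cells, whereas those of macrophage-like cells lay apart from those of T-like cells (591 ± 94.9 and 419 ± 23.3 CPM).

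Ccl4 reached its highest level in NK-like cells, at 2557 CPM in G-HD, 2486 in MPG-HD and 2148 in PBS, but these were only 15, 11 and 5 cells. Microglia-like cells followed with 2275 CPM in G-HD, 1571 in MPG-HD and 1501 in PBS, and the ranges of these top classes overlapped. T-like cells had 1237, 1171 and 713 CPM and macrophage-like cells 286, 400 and 223 CPM in G-HD, MPG-HD and PBS. The median microglia-like cell held 12 Ccl4 UMIs in G-HD, 9 in MPG-HD and 7 in PBS. Ccl4 was seen in 83.7% of G-HD, 78.9% of MPG-HD and 76.3% of PBS microglia-like cells, and in 11.8%, 9.82% and 7.11% of oligodendrocyte-like cells. Both genes were often found in the same microglia-like cells. After thinning, Ccl4 was seen in 69.9% of the Ccl3-positive and 33.8% of the other microglia-like cells in G-HD, in 58.7% and 26.1% in MPG-HD, and in 56.2% and 36.2% in PBS. Across 27 profiles (9 classes in 3 libraries), the levels of Ccl3 and Ccl4 correlated with Pearson r = 0.82 on the log2(CPM + 5) scale. This is a description, since the profiles share libraries and depth.

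Ccl2, the main monocyte attractant, had several sources. Its highest level was in mural-like cells, the pericytes and smooth muscle cells of vessel walls, with 1379.8 CPM in G-HD, 1262 in MPG-HD and 1400.4 in PBS. The mural-like levels lay above those of every other class in all 3 libraries but came from only 24, 19 and 13 cells. Monocyte-like (432 ± 374 CPM), microglia-like (342 ± 132), fibroblast-like (337 ± 91.8) and macrophage-like cells (234 ± 35.6) overlapped in their ranges over the 3 libraries, and oligodendrocyte-like cells had 4.00 ± 0.249 CPM. By share of UMIs, macrophage-like cells held 46.3% of Ccl2 in G-HD, 46.0% in MPG-HD and 29.6% in PBS, and microglia-like cells held 16.1%, 29.5% and 41.1%. In PBS, microglia-like cells were thus the larger source, and in both treated libraries macrophage-like cells were. Unlike Ccl3, Ccl2 was carried by a minority of microglia-like cells, 30.3% (25.1 to 35.9) in G-HD, 31.2% (26.5 to 36.2) in MPG-HD and 35.9% (30.1 to 42.0) in PBS, against 4.73%, 4.53% and 0.889% of oligodendrocyte-like cells. Cells with at least 10 Ccl2 UMIs made up 8.16% of microglia-like cells in G-HD, 9.49% in MPG-HD and 15.3% in PBS.

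Ccl7, a second monocyte attractant and the immediate neighbour of Ccl2 on chromosome 10, was held mainly by macrophage-like cells (62.0% of its UMIs in G-HD, 55.6% in MPG-HD and 52.6% in PBS). Its level there was 82.7 CPM in G-HD, 81.9 in MPG-HD and 79.7 in PBS, and microglia-like cells overlapped with 109, 49.8 and 85.7 CPM. Ccl7-positive macrophage-like cells often held Ccl2 as well. After thinning, 43.2% of Ccl7-positive cells had a Ccl2 UMI in G-HD, 61.5% in MPG-HD and 41.2% in PBS, against 10.4%, 12.7% and 10.9% of the other macrophage-like cells, although these were 37, 26 and 17 positive cells. Ccl12, a rodent attractant of monocytes, was rare. By whole classes it was led by microglia-like cells, with 11.4 CPM in G-HD, 9.59 in MPG-HD and 19.2 in PBS, against 4.60, 2.48 and 3.68 CPM in macrophage-like cells. These class levels did not overlap, although the more numerous macrophage-like cells held 56.0% of the Ccl12 UMIs in G-HD. The class II-rich macrophage-like cluster 7 alone stood above the microglia-like class, at 27.2 CPM in G-HD, 18.5 in MPG-HD and 25.7 in PBS. That rests on 31, 18 and 15 UMIs, and 27 of the 31 were in 1 cell. The 5 richest cells held 62.0% of all Ccl12 UMIs in G-HD, 65.4% in MPG-HD and 60.5% in PBS.

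Ccl5, a ligand of Ccr1 made by cytotoxic lymphocytes, was confined in these libraries almost wholly to T-like cells (53.8% of its UMIs) and NK-like cells (42.5%). NK-like cells had 23035 CPM of Ccl5 in G-HD, 19718 in MPG-HD and 29504 in PBS, and every NK-like cell had at least 1 UMI. T-like cells had 4441, 3253 and 3245 CPM, and 25.7%, 32.1% and 31.4% of them had a UMI, against 0, 0.252 and 0.444% of oligodendrocyte-like cells, which are deeper (median 3223, 3470 and 3405 UMIs in T-like cells). The NK-like and T-like levels overlapped neither each other nor any other named class. Ccl5 led clusters of T-like and NK-like cells even though it was not used to form them. T-like cells with Ccl5 nearly always held Ccl4 too, 25 of 27 in G-HD, 15 of 17 in MPG-HD and 15 of 16 in PBS, against 21.8%, 8.33% and 17.1% of the T-like cells without Ccl5. The genes most like Ccl5 across the 27 profiles were Zap70 (r = 0.99), Sh2d2a (0.98) and Klrd1 (0.98), genes of T and NK cell signalling.

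Ccl6 had its highest level in neutrophil-like cells, at 2354 CPM in G-HD, 9045 in MPG-HD and 5084 in PBS. These cells formed a pair of clusters, and the spread followed their mixture. In cluster 16, led by G0s2, Ccl6 stood at 10775 CPM in G-HD (73 cells), 10922 in MPG-HD (29 cells) and 10595 in PBS (21 cells). In cluster 19, led by the granule genes Camp and Ngp, it stood at 19.0 CPM in G-HD (8 UMIs in 60 cells) and at 0 UMIs in the 2 MPG-HD and 5 PBS cells. Within cluster 16 the 3 libraries therefore differed by less than their counting intervals. Macrophage-like cells held 54.7% of all Ccl6 UMIs, at 159 CPM in G-HD, 164 in MPG-HD and 158 in PBS for the class as a whole.

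**Figure D3:**
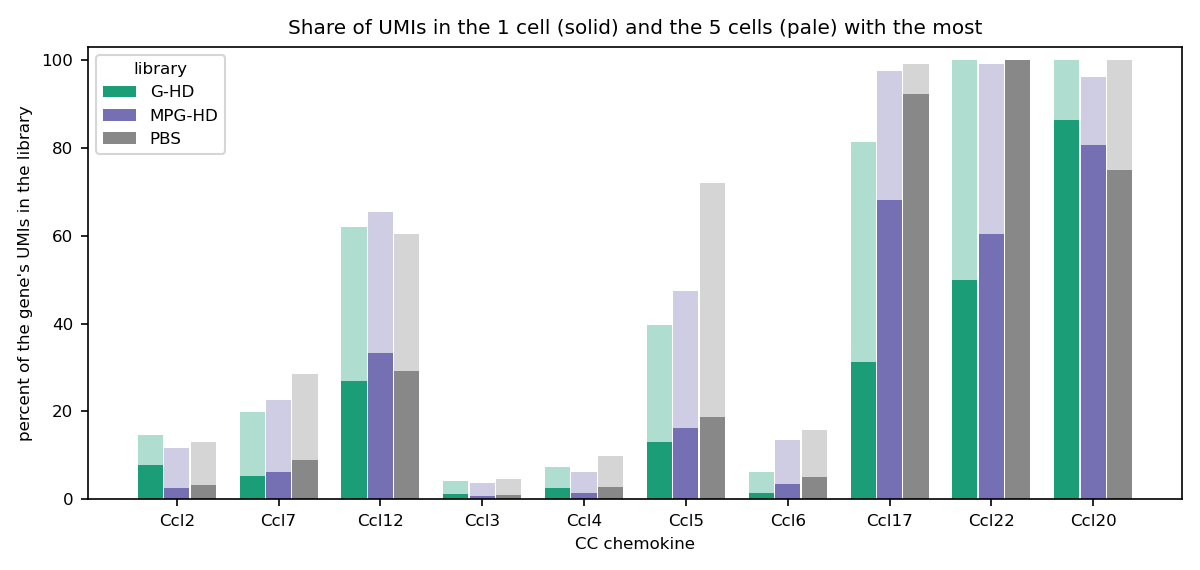
Percent of a member's UMIs in a library (y axis) held by the richest cell (solid bars) and by the 5 richest cells (pale bars), for G-HD, MPG-HD and PBS. The richest cell held 1.19%, 0.798% and 0.964% of the Ccl3 UMIs, whereas it held 86.4% of the Ccl20 UMIs in G-HD and 80.8% in MPG-HD.

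Ccl17, Ccl20 and Ccl22 were concentrated in single cells. In 8 of the 30 pairs of member and library, 1 cell held at least 50% of the gene's UMIs, and all of these pairs belonged to Ccl17, Ccl20 and Ccl22. This count had no minimum of UMIs. It includes Ccl22 in G-HD (2 UMIs) and PBS (3 UMIs) and Ccl20 in PBS (8 UMIs), where so few UMIs cannot show a concentration. The richest cell held 31.3% of Ccl17 in G-HD, and 27.0%, 33.3% and 29.1% of Ccl12 in G-HD, MPG-HD and PBS. At the other end, 139 G-HD, 160 MPG-HD and 101 PBS cells were needed to reach 50% of the Ccl3 UMIs. For Ccl2, 48, 46 and 33 cells were needed, and for Ccl5 8, 6 and 4.

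Ccl17 and Ccl22, which lie on chromosome 19 with Cx3cl1 between them and both act on Ccr4 of T cells, came mostly from cells of the class II-rich cluster 7, which is named macrophage-like as a whole. Of 48 Ccl17 UMIs in G-HD, 15 were in 1 cell, of 160 in MPG-HD 109 were in 1 cell, and of 130 in PBS 120 were in 1 cell. These richest cells all belonged to cluster 7. The MPG-HD cell (14726 UMIs) also held 70 of the 116 Ccl22 UMIs of its library, and another MPG-HD cell of cluster 7 held 39 Ccl22 UMIs and 1 Ccl17 UMI. The PBS cell (20054 UMIs) held all 3 Ccl22 UMIs of its library, and G-HD had 2 Ccl22 UMIs in 2 cells. Every G-HD and PBS cell with Ccl22 (2 and 1), and 4 of the 6 MPG-HD cells, also held Ccl17. The macrophage markers were lower in these cells than in the rest of cluster 7 (29438 to 29602 CPM). They summed to 13242 CPM in the richest MPG-HD cell, 1624 in the cell with 39 Ccl22 UMIs, 1197 in the PBS cell and 6893 in the richest G-HD cell. Another MPG-HD cell, with 16 Ccl17 and 4 Ccl22 UMIs, had 444 CPM of them. The name of the class goes against the own markers of the cells at 444 to 1624 CPM. The richest MPG-HD cell lay below its cluster but above the 8011 to 10453 CPM of microglia-like cells. Of 13 genes of migratory dendritic cells, 5 were seen in the richest MPG-HD cell (33 UMIs, 21 of them Cd83) and 4 in the PBS cell (29 UMIs, 21 of them Cd83). The list summed to 2241 and 1446 CPM there against 737 and 740 CPM in the rest of the cluster, but to 666 against 745 CPM in the cell with 16 Ccl17 UMIs. The 9 dendritic cell markers stood at 67.9 CPM in the richest MPG-HD cell against 68.3 CPM in the rest of the cluster. No cell type is named for these cells. Only 14 G-HD, 8 MPG-HD and 6 PBS cells had a Ccl17 UMI at all, so the levels below rest on a few cells. Among the 14 G-HD cells, 5 were B-like cells with 1 UMI each, and 2 cells of the unnamed, cell cycle-led cluster 9 held 12 and 1 UMIs. In PBS, 2 cells of cluster 9 held 2 and 1 UMIs.

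Ccl20, which attracts Ccr6-bearing lymphocytes, was found in 4 G-HD, 6 MPG-HD and 3 PBS cells. In G-HD, 76 of 88 UMIs were in 1 fibroblast-like cell of 15173 UMIs, which also held 443 Ccl2 and 58 Ccl7 UMIs, more of each of Ccl2 and Ccl20 than any other cell of that library. The same cell held 19 UMIs of Nfkbia, 10 of Icam1 and 6 of Ptgs2, targets of NF-kB, and 2 of 7 fibroblast markers, against a median of 5.5 in its class. It also held 26 UMIs of 3 neutrophil markers (1714 CPM against 44.2 CPM in the rest of its cluster) and 12 UMIs of 1 monocyte marker, while its fibroblast markers stood at 2043 CPM against 10692 CPM, so its class name rests on its cluster. In MPG-HD, 21 of 26 UMIs were in 1 fibroblast-like cell with 95 Ccl2 UMIs and 6 of 7 fibroblast markers. In PBS, 6 of 8 UMIs were in 1 endothelial-like cell of 46119 UMIs, and 2 fibroblast-like cells held 1 each. Ccl20 and Ccl2 thus met in the richest Ccl20 cell of both treated libraries, and that of PBS had no Ccl2 UMI.

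The promoters of these co-occurring members are shown because Ccl17 and Ccl22 met in the richest MPG-HD and PBS cells, and Ccl20 and Ccl7 in the fibroblast-like G-HD cell. RefSeq promoters (build GRCr8, 250 bases before the gene's start, 5′ to 3′ on the gene's strand) were matched for 6 of the 10 members, not for Ccl2, Ccl3, Ccl4 and Ccl5. Capitals mark matches to 3 motifs searched on both strands, GGG with any 3 bases and TTCC for NF-kB, TTC with any 4 bases and GAA for STAT factors, and TATAAA for the TATA box, and no matches overlapped.
Ccl17, chr19:10209896-10210145, minus strand: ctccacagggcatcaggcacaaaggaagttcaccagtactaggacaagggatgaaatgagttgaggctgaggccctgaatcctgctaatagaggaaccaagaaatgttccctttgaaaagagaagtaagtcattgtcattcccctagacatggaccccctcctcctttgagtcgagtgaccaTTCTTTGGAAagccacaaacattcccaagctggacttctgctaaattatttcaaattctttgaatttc
Ccl22, chr19:10270360-10270609, minus strand: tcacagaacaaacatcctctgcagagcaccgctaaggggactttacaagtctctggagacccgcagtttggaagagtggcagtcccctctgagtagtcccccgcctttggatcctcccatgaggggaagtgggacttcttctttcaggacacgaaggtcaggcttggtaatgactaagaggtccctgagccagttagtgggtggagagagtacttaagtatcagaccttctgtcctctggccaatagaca
Ccl20, chr9:91836909-91837158, plus strand: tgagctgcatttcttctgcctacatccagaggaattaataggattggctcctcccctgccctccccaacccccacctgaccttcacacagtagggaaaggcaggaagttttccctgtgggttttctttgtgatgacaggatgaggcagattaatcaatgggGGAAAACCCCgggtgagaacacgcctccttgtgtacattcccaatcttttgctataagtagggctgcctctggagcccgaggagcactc
Ccl7, chr10:67513845-67514094, plus strand: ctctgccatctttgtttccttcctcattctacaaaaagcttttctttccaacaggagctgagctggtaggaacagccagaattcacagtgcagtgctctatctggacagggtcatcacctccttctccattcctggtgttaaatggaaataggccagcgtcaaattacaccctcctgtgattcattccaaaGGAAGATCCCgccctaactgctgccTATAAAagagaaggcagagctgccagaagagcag
The Ccl20 window held the NF-kB motif on the minus strand at bases 89 to 80 before the start, and the Ccl7 window held it on the minus strand at bases 59 to 50 together with a TATA box at bases 34 to 29. The Ccl17 window held the STAT motif at bases 68 to 59, and the Ccl22 window held none of the 3. Among all 33469 promoters in the table, windows of this length held the NF-kB motif in 4.53%, the STAT motif in 6.25% and the TATA box in 12.9%. Of the 6 matched members, 3 held the NF-kB motif, 1 the STAT motif and 3 the TATA box. A match is a run of letters and not a bound site.

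Microglia-like cells of the G-HD and MPG-HD libraries carried less Ccl2 than those of the PBS library. Ccl2 stood at 265 CPM (248 to 282) in G-HD and 266 CPM (252 to 282) in MPG-HD, against 495 CPM (471 to 519.97) in PBS, from 926, 1278 and 1571 UMIs. The ratio over PBS was 0.535 (0.493 to 0.581) for G-HD and 0.538 (0.500 to 0.580) for MPG-HD, and the ratio of MPG-HD over G-HD was 1.01 (0.924 to 1.10). Without the richest cell of each library these ratios over PBS were 0.508 and 0.526. Ccl4 was higher in G-HD than in PBS microglia-like cells, with a ratio of 1.52 (1.46 to 1.57), just past the 1.5-fold line, while the ratio of MPG-HD over PBS was 1.05 (1.01 to 1.09). Ccl3 differed little, at 1.00 (0.977 to 1.03) for G-HD and 0.920 (0.896 to 0.946) for MPG-HD over PBS. Ccl7 was lower in MPG-HD, with a ratio of 0.582 (0.487 to 0.695) over PBS and 0.459 (0.388 to 0.541) over G-HD. In PBS, 73 of the 272 Ccl7 UMIs of the class were in 1 cell. Over the processing alternatives, the 2 ratios ran from 0.537 to 0.810 and from 0.449 to 0.818, so they did not always pass 1.5-fold. Ccl12 was lower in both, at 0.595 (0.389 to 0.902) and 0.499 (0.333 to 0.744), but without the richest cells these ratios were 0.756 and 0.367.

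The microglia-like class was made up differently in each library. At a higher clustering resolution (1.2) it split into a cluster led by Anxa3, Gpr84 and Tmem119 (178 G-HD, 297 MPG-HD and 229 PBS cells) and a cluster led by the interferon-induced genes Mx1, Ifit3 and Isg15 (115, 71 and 27 cells). Within the Gpr84 cluster, the Ccl2 ratio over PBS was 0.503 (0.456 to 0.554) for G-HD and 0.515 (0.476 to 0.559) for MPG-HD. Within the interferon-gene cluster, Ccl2 stood at 266 CPM in G-HD, 209.9 in MPG-HD and 275 in PBS, and its ratios over PBS were 0.967 (0.770 to 1.23) and 0.763 (0.597 to 0.980), inside 1.5-fold. The Ccl4 ratio of G-HD over PBS was 1.501 (1.44 to 1.56) in the Gpr84 cluster and 1.38 (1.27 to 1.51) in the interferon-gene cluster. For MPG-HD over PBS, it was 1.13 (1.09 to 1.18) and 0.619 (0.560 to 0.685). Ccl12 was lower past 1.5-fold in the interferon-gene cluster, with ratios over PBS of 0.174 (0.103 to 0.290) and 0.0328 (0.00852 to 0.0905), against 0.832 (0.380 to 1.76) and 1.55 (0.890 to 2.79) in the Gpr84 cluster. These rest on 27, 4 and 41 UMIs in the interferon-gene cluster and 13, 42 and 20 in the Gpr84 cluster (G-HD, MPG-HD and PBS). Macrophage markers summed to 10453 CPM in G-HD, 8011 in MPG-HD and 8549.9 in PBS microglia-like cells. Of the 7 listed type 2 and glucocorticoid-type macrophage genes, 3 were measured. All 3 (Mrc1, Tgfb1 and Clec10a) were higher in both G-HD and MPG-HD than in PBS microglia-like cells. Of all genes, 7.75% and 5.93% were higher in these 2 comparisons. The median log2 ratios of the 3 were 1.23 and 1.00, against 0.00 and -0.02 over all genes. The part of these markers in the chemokine ratios was not tested.

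A member was measured in a comparison where its 2 sums together held 20 UMIs or more, and called from 1.5-fold on in either direction. G-HD over PBS in microglia-like cells had 2 of 7 members higher (Ccl4 and Ccl5) and 2 lower (Ccl2 and Ccl12). Of all genes measured in that comparison, 7.75% were higher and 7.05% lower. For MPG-HD over PBS, 0 of 6 members were higher and 3 lower (Ccl2, Ccl7 and Ccl12), where 5.93% of all genes were higher and 7.24% lower. For MPG-HD over G-HD, 0 of 7 members were higher and 2 lower (Ccl5 and Ccl7), where 4.91% of all genes were higher and 7.44% lower. The median log2 ratio of the measured members was 0.20, -0.51 and -0.43 in these 3 comparisons, against 0.00, -0.02 and -0.03 over all genes. The Ccl5 ratio of 13.3 (4.27 to 67.0) for G-HD over PBS compared 44 with 3 UMIs. Of the 44 UMIs 24 were in 1 cell, which held none of the 6 T cell and none of the 7 NK cell markers, and without the richest cells the ratio was 9.10. Within the interferon-gene cluster, Ccl5 had 41 UMIs in G-HD (115 cells) and 0 UMIs in PBS (27 cells). Within the Gpr84 cluster it was not higher in G-HD, at 0.931 CPM (2 UMIs) against 1.09 CPM in PBS (3 UMIs). Summed T cell markers stood at 4.29 CPM in G-HD, 6.26 in MPG-HD and 4.73 in PBS microglia-like cells.

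**Figure D4:**
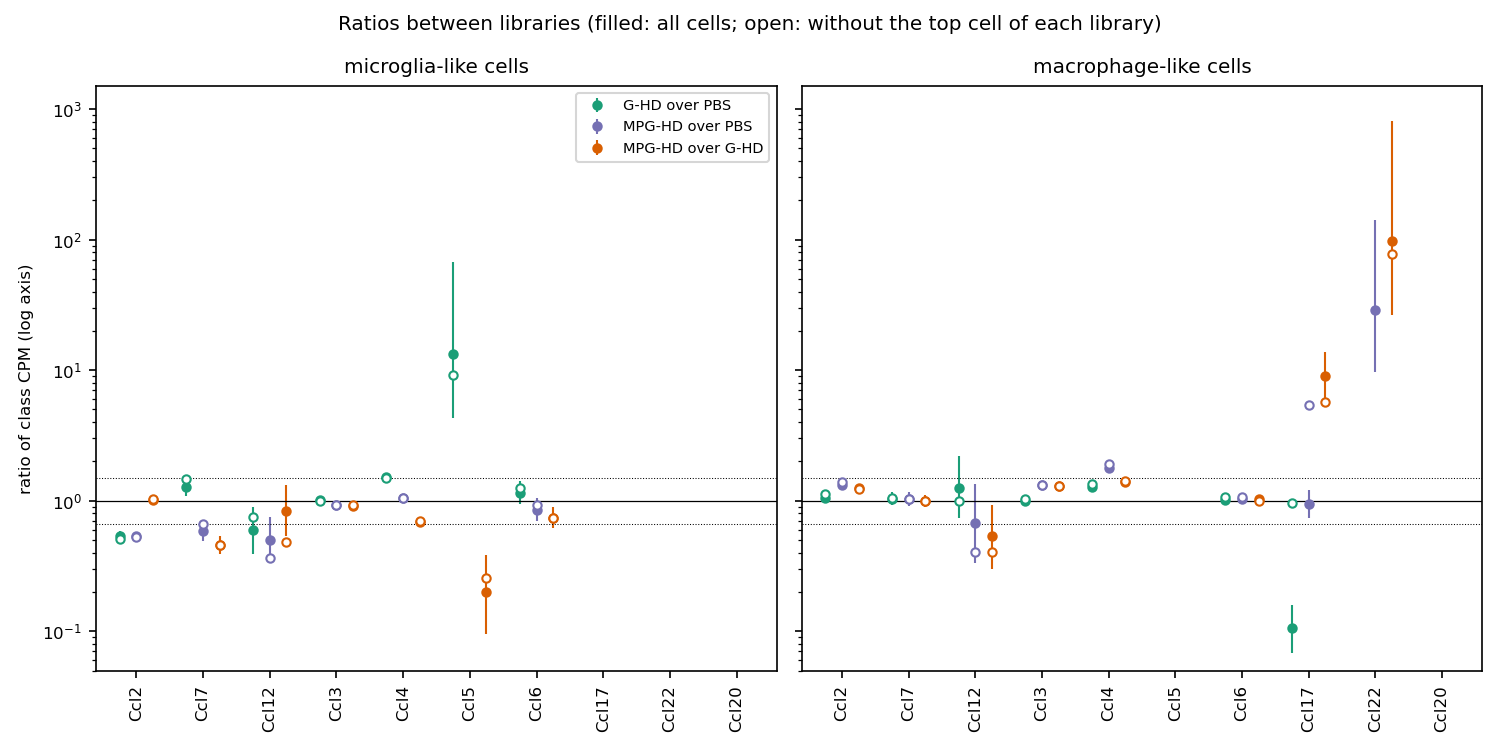
Ratio of class levels (CPM, log axis) for G-HD over PBS, MPG-HD over PBS and MPG-HD over G-HD, in microglia-like cells (left) and macrophage-like cells (right), for members with at least 20 UMIs. Filled points carry exact 95% counting intervals, open points leave out the richest cell of each library, and dotted lines stand at 1.5-fold in both directions. Ccl2 in microglia-like cells lies at 0.535 and 0.538 over PBS, below the lower line.

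In macrophage-like cells as a whole, the abundant members differed less. Ccl4 was higher in MPG-HD than in PBS, at 400 against 223 CPM, a ratio of 1.79 (1.68 to 1.92), and 1.91 without the richest cells. For G-HD over PBS the Ccl4 ratio was 1.28 (1.197 to 1.37). Ccl2 and Ccl3 stayed inside 1.5-fold in all 3 comparisons, with 1.32 (1.22 to 1.42) and 1.31 (1.25 to 1.37) for MPG-HD over PBS. For the whole class, Ccl6 and Ccl7 lay between 0.990 and 1.04 in all 3, but not within its clusters, as given below. The Ccl17 ratio of 0.105 (0.0683 to 0.158) for G-HD over PBS compared 30 with 127 UMIs and was 0.952 without the richest cell of each library. That of MPG-HD over PBS was 0.942 with all cells and 5.44 without the richest, and that of MPG-HD over G-HD was 8.95 (6.03 to 13.7) and 5.71. The Ccl22 ratio of MPG-HD over PBS was 28.9 (9.65 to 142) for 116 against 3 UMIs, and without the richest cells, where PBS had 0 UMIs, it was at least 11.4-fold against a floor of 3 counts. The richest Ccl17 and Ccl22 cells counted here had lower macrophage markers than the rest of cluster 7, as given above. Over PBS, G-HD had 0 of 7 members higher and 1 lower (Ccl17), where 7.55% of all genes were higher and 7.99% lower. MPG-HD over PBS had 2 of 8 higher (Ccl4 and Ccl22) and 0 lower, where 4.7% of all genes were higher and 7.86% lower. MPG-HD over G-HD had 2 of 8 higher (Ccl17 and Ccl22) and 1 lower (Ccl12), where 5.1% of all genes were higher and 7.09% lower. The median log2 ratios were 0.05, 0.22 and 0.36, against 0.00, -0.03 and -0.03 over all genes.

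The ratios differed in direction between the 3 macrophage-like clusters, and their sizes also differed between libraries. Cluster 2 had 437 G-HD, 197 MPG-HD and 153 PBS cells, cluster 4 had 139, 155 and 121, and cluster 7 had 124, 101 and 67. In the C1q-rich cluster 4, Ccl2 stood at 385 CPM in G-HD and 369 in MPG-HD, against 159 CPM in PBS, ratios of 2.43 (2.12 to 2.79) and 2.32 (2.03 to 2.66). Ccl4 in the same cluster stood at 654 and 754 CPM against 247 CPM, ratios of 2.65 (2.38 to 2.95) and 3.05 (2.75 to 3.39). In cluster 2 the Ccl4 ratios of G-HD and MPG-HD over PBS were 2.29 (1.96 to 2.67) and 1.63 (1.37 to 1.94). In cluster 7 they were 0.791 (0.711 to 0.882) and 0.868 (0.778 to 0.969). Ccl3 in cluster 4 stood at 1060 CPM in G-HD and 1228 in MPG-HD, against 707 CPM in PBS. Its ratio of MPG-HD over PBS was 1.74 (1.63 to 1.86) there, and 1.02 and 0.981 in clusters 2 and 7. In the class II-rich cluster 7, Ccl2 stood at 573 CPM in G-HD, 911 in MPG-HD and 929 in PBS, and the ratio of G-HD over PBS was 0.617 (0.550 to 0.693). In the Mmp12-rich cluster 2, Ccl2 had its lowest levels, 139, 71.2 and 98.0 CPM, and Ccl7 was higher in G-HD (49.4 CPM) than in PBS (23.2 CPM), at 2.13-fold (1.65 to 2.78). For G-HD over PBS, the Ccl6 ratio was 1.92 (1.64 to 2.26) in cluster 7, 1.19 in cluster 4 and 0.805 in cluster 2. For MPG-HD over PBS it was 1.25, 1.22 and 0.639 in the same clusters. The Ccl7 ratio of MPG-HD over G-HD was 1.99 (1.68 to 2.36) in cluster 7, 0.362 (0.295 to 0.442) in cluster 4 and 0.402 in cluster 2. The ratio of the whole class thus averaged over clusters with ratios above and below 1. Whether the differences between clusters exceed those between animals was not tested.

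**Figure D5:**
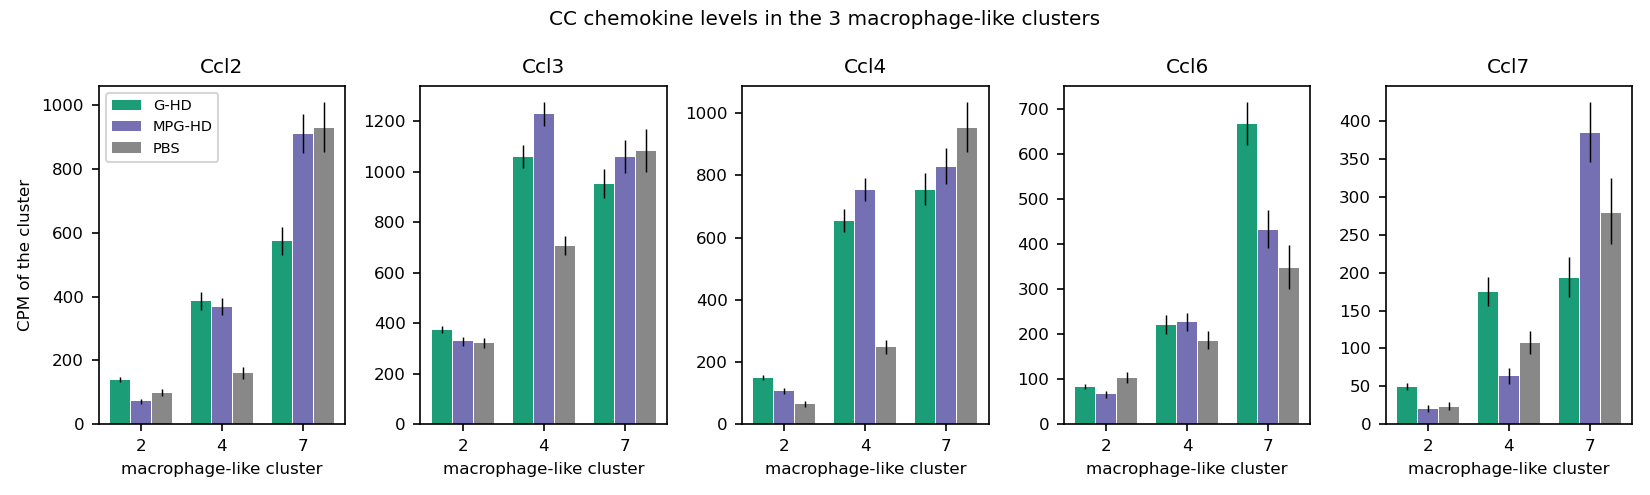
Levels (CPM) of Ccl2, Ccl3, Ccl4, Ccl6 and Ccl7 in the 3 macrophage-like clusters, with a bar per library for G-HD, MPG-HD and PBS and exact 95% counting intervals as error bars. In cluster 4 the G-HD and MPG-HD bars for Ccl2 (385 and 369) stand above the PBS bar (159), and in cluster 7 the G-HD bar (573) stands below the PBS bar (929).

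By class sums outside the myeloid classes, most members past 1.5-fold were higher in the treated libraries than in PBS. Many of these calls rested on 1 cell or on a PBS level not above the oligodendrocyte-like background. In Schwann-like cells, the myelinating cells of nerve roots that enter injured cord, Ccl2 stood at 215 CPM in G-HD and 129 in MPG-HD, against 68.9 CPM in PBS. The ratios were 3.13 (2.18 to 4.60) and 1.87 (1.28 to 2.80), and 2.88 and 2.15 without the richest cells. Ccl3 and Ccl4 were also past 1.5-fold there for G-HD over PBS (7.96 and 26.4), making 3 of 3 measured members higher where 11.5% of all genes were higher and 9.18% lower. Their PBS levels (11.8 and 3.94 CPM, from 6 and 2 UMIs) were not above those of the oligodendrocyte-like background (18.9 and 6.17 CPM), so no change is read from these ratios. In addition, 85 of the 96 Ccl3 UMIs and 97 of the 106 Ccl4 UMIs were in 1 cell of 13479 UMIs, against a class median of 4498. That cell held 6 of 11 macrophage markers, against a median of 2 in its class, and 5 of 8 Schwann markers. For MPG-HD over PBS, Ccl2 was higher where 8.87% of all genes were higher and 10.5% lower, and for MPG-HD over G-HD all 3 (Ccl2 0.600, Ccl3 0.167 and Ccl4 0.0943) were lower where 5.32% of all genes were higher and 10.4% lower, but without the richest cells the Ccl3 ratio turned to 1.35. Summed macrophage markers stood at 1492 CPM in G-HD, 1316 in MPG-HD and 1077 in PBS Schwann-like cells, and neutrophil markers at 303, 3.91 and 11.8 CPM. Their part in these ratios was not tested.

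In fibroblast-like cells, G-HD over PBS had 4 of 5 measured members higher (Ccl3 5.65, Ccl4 11.8, Ccl7 2.91 and Ccl20 29.6), where 13.8% of all genes were higher and 10.8% lower. Ccl20 compared 87 with 2 UMIs, 76 of the 87 in 1 cell, and without the richest cells it fell under the 20-UMI minimum. Ccl7 stood at 55.7 CPM in G-HD, 19.9 in MPG-HD and 19.1 in PBS and its ratio of G-HD over PBS was 3.098 without the richest cells, which include the cell with 443 Ccl2 UMIs. The Ccl2 ratio of G-HD over PBS was 1.26 with that cell and 0.965 without the richest cells. In cluster 13, Ccl2 stood at 934 CPM in G-HD, 14.4 in MPG-HD and 9.50 in PBS, and 443 of the 502 G-HD UMIs were in that cell. The other fibroblast-like clusters went the other way. Cluster 11 had 394 CPM in G-HD, 559.9 in MPG-HD and 1070.3 in PBS, and cluster 15 had 139.9, 362 and 424 CPM, and the ratios of G-HD over PBS were 0.368 (0.323 to 0.419) and 0.330 (0.261 to 0.416). These clusters had 34 and 43 PBS cells. Over all PBS fibroblast-like cells, 31 held the 638 Ccl2 UMIs and 4 of them reached 50%, so these ratios also rest on few cells. The Ccl3 and Ccl4 ratios of G-HD over PBS were 2.25 and 2.43 without the richest cells, but the PBS levels (6.91 and 5.85 CPM) were not above those of oligodendrocyte-like cells (18.9 and 6.17 CPM). In that background class itself, the Ccl4 ratio of G-HD over PBS was 2.28 (1.19 to 4.51), and no change is read from the Ccl3 and Ccl4 ratios. MPG-HD over PBS had 3 of 5 higher (Ccl3 7.64, Ccl4 2.67 and Ccl20 10.6), where 6.26% of all genes were higher and 11.3% lower. A cell of 31823 UMIs with 6 of 11 macrophage markers held 64 of the 122 Ccl3 and 24 of the 36 Ccl4 UMIs, and another held 21 of the 26 Ccl20 UMIs. Without the richest cells, the Ccl3 ratio was 3.93, the Ccl4 ratio was 1.10, and Ccl20 was under the minimum. MPG-HD over G-HD had 4 of 5 lower (Ccl2 0.571, Ccl4 0.227, Ccl7 0.357 and Ccl20 0.358), where 7.02% of all genes were higher and 15.4% lower. Without the richest cells these were 0.747 for Ccl2, inside 1.5-fold, 0.452 for Ccl4 and 0.490 for Ccl7, Ccl20 was under the minimum, and Ccl3 passed to 1.75. Summed macrophage markers in fibroblast-like cells stood at 900 CPM in G-HD, 609 in MPG-HD and 257 in PBS, and neutrophil markers at 82.9, 10.8 and 32.4 CPM. The richest G-HD cell for Ccl3 and Ccl4 (68 and 158 UMIs) held 5 of 11 macrophage and 6 of 10 microglia markers against class medians of 3 and 2. The part of these markers in the ratios was not tested. In T-like cells, Ccl4 was higher in G-HD and in MPG-HD than in PBS, at 1.74-fold (1.44 to 2.10) and 1.64-fold (1.33 to 2.03), where 14.1% and 10.9% of all genes were higher and 12.3% and 14.2% lower. Neither Ccl4 (0.947) nor Ccl5 (0.733) passed 1.5-fold between MPG-HD and G-HD, where 10.3% of all genes were higher and 15.1% lower. The Ccl5 ratio of G-HD over PBS was 1.37 (1.25 to 1.499), but 1.67 without the richest cells, of which the G-HD one held 378 of 1698 UMIs, and that of MPG-HD over PBS was 1.00 and 1.26.

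Some receptors of these ligands were read in the same classes. Ccr6, the Ccl20 receptor, stood at 196 CPM in G-HD, 133 in MPG-HD and 97.0 in PBS T-like cells, a ratio of 2.02 for G-HD over PBS. Ccr1, which binds Ccl3, Ccl5 and in mice Ccl6, stood in neutrophil-like cells at 83.6 CPM in G-HD, 195 in MPG-HD and 121 in PBS. All genes of this class together had only 56382 UMIs in MPG-HD and 74158 in PBS, against 538301 in G-HD. Clusters 16 and 19 were also mixed differently, with 73 and 60 cells in G-HD, 29 and 2 in MPG-HD and 21 and 5 in PBS. The part of this mixture in the Ccr1 levels was not tested. The Ccr1 ratio was 0.636 for MPG-HD over PBS in macrophage-like cells, and microglia-like cells held 7 Ccr1 UMIs in G-HD against 15 in PBS. Ccr2 was not analysed here. Among 9 other CC ligands, Ccl9 had 396 UMIs in G-HD, 236 in MPG-HD and 182 in PBS, with 24.0, 15.6 and 19.9 CPM in macrophage-like cells. Ccl19 had 38, 64 and 37 UMIs with 12.7, 24.3 and 18.1 CPM in fibroblast-like cells, and Ccl21 had 0 UMIs in every library.

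Early genes that tissue digestion can induce were read beside these levels, since Ccl2, Ccl3 and Ccl4 are known to be induced in the same way. The 7 listed genes in the table summed to 6871 CPM in G-HD, 6929 in MPG-HD and 7549 in PBS microglia-like cells, to 5241, 5051 and 4872 CPM in macrophage-like cells, to 9152, 5580.1 and 5692 CPM in fibroblast-like cells, and to 9718, 9114 and 7311 CPM in Schwann-like cells. In fibroblast-like cells 4 of the 7 (Fos, Jun, Junb and Dusp1) were past 1.5-fold in the ratio of G-HD over PBS. Of all genes measured in that comparison, 13.8% passed 1.5-fold upward and 10.8% downward. Mural-like cells, the class with the highest Ccl2 level, also had the highest such sums of the 5 classes named here, 25565, 22731 and 18241 CPM. Their part in the chemokine levels was not tested. Tnf, an inflammatory cytokine and NF-kB target, was lower in microglia-like cells of both treated libraries, with 47.5 CPM in G-HD and 43.4 in MPG-HD, against 96.1 CPM in PBS. The 11 NF-kB genes summed to 7625, 5963 and 7435 CPM there. For G-HD over PBS, 1 of 10 measured NF-kB genes was higher (Ptgs2) and 2 were lower (Icam1 and Tnf), where 7.75% of all genes were higher and 7.05% lower. For MPG-HD over PBS 1 of 11 was higher (Ptgs2) and 2 were lower (Nfkbiz and Tnf), where 5.93% were higher and 7.24% lower.

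The genes whose levels followed the members most closely across the 27 profiles gave a further description, with no test. For Ccl3 they were Tnfaip8l2 (r = 0.96), Gna15 (0.96) and Pik3ap1 (0.95), for Ccl4 Epsti1 (0.95), Kcnn4 (0.94) and Rgs1 (0.93), and for Ccl2 Ctbs (0.88), Ctsh (0.86) and Fhl3 (0.83). For Ccl7 they were C2 (0.93), Cmklr1 (0.92) and Cd14 (0.91), and for Ccl12, seen in only 7 of the 27 profiles, Cd180 (0.98), Tlr7 (0.97) and Slc2a5 (0.96). For Ccl6 they were Igsf6 (0.99), Clec4a2 (0.98) and Fgr (0.98). Ccl17 and Ccl22 had a UMI in 3 of the 27 profiles and Ccl20 in 5, largely through single cells, so no likeness is given for them. Between members, r was 0.60 for Ccl2 with Ccl7.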

How the data were processed

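The deposited files are 10x Genomics 3′ matrices of UMI counts per gene and cell barcode, raw and not normalized per the file headers, with 25199 rat features. Cell Ranger 3.0.2 is named in the submitters' processing notes, with GRCm38 and mm10 (mouse builds) beside it, while the matrix header gives version 3.1.0 and the identifiers are rat. The rat build and the handling of reads shared by related genes, such as the neighbouring Ccl3 and Ccl4 or Ccl7 and Ccl12, were not given in the sources used here. Total counts were 26289759 (G-HD), 23988263 (MPG-HD) and 16081082 (PBS) UMIs. Cells passed with 200 or more genes and no more than 20% mitochondrial UMIs. Scrublet in Scanpy 1.11.5 called 12 of 5815 cells (0.206%) as doublets, so it was taken as not having worked. Those 12 cells were removed, and cells with markers of another class are named in the text.

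Clusters came from 2000 variable genes without the CC ligands, 30 principal components, 20 neighbours and Leiden at resolution 0.8 (leidenalg 0.10.2, Python 3.11.15). They were named from 20 marker sets where at least 3 markers were found in at least 20% of cells. CPM are UMIs summed per class and library over the summed total. Ratios carry exact conditional 95% intervals and shares exact (Clopper-Pearson) ones (SciPy 1.17.1). Members were measured in a comparison with at least 20 UMIs in its 2 sums together, and ratios from 1.5 up or from its inverse down were called. Classes with at least 50 cells in every library were compared. Named genes are the 10 members, the 3 genes most like each of them (not given for 3 members seen in few profiles), and list members with values that a result turns on. The members and lists were chosen with earlier results of these data known. The counting and ratio steps were checked on simulated counts. Alternatives are given at the end.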

Additional observations from a re-analysis of the deposited data

Results flagged for a closer look

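The ratio of Ccl2 over PBS was higher in Schwann-like cells and lower in microglia-like cells. For G-HD it was 3.13 in Schwann-like and 0.535 in microglia-like cells, and for MPG-HD it was 1.87 and 0.538. The opposite directions of these classes drew attention to it, and the difference was not tested, since each condition has 1 library. Both comparisons share the PBS library. The macrophage markers summed to 1492 CPM in G-HD, 1316 in MPG-HD and 1077 in PBS Schwann-like cells, and neutrophil markers to 303, 3.91 and 11.8 CPM. Their part in the result was not tested.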

How the results depend on the processing

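No paired analysis was possible because each condition has 1 library, and for the same reason no library could be left out. Of the main values, 146 stayed the same and 28 moved over the alternatives, and of the ratios of single members outside the oligodendrocyte-like background class 582 stayed, 95 moved and 1 reversed. In the background class 57 stayed, 12 moved and 2 reversed, Ccl4 for G-HD over PBS under the stricter cell filter (0.291, against 2.28) and Ccl3 for MPG-HD over G-HD with equal weight per cluster (1.05, against 0.584). The microglia-like Ccl2 ratio stayed between 0.393 and 0.535 for G-HD over PBS and between 0.489 and 0.539 for MPG-HD over PBS. The counts below are members called, with the main value in brackets, and the cause of each change was not tested except where the setting itself measures fewer members. With no filter on cells, 1 (0) was lower for MPG-HD over PBS in macrophage-like cells. With unnamed clusters counted in their nearest class, 1 (2) was higher for G-HD over PBS and 1 (2) lower for MPG-HD over G-HD in microglia-like cells. Without the richest cell of each library and class, for G-HD over PBS 0 (1) were lower in macrophage-like and 1 (2) in microglia-like cells. Under that setting 1 (0) was lower for MPG-HD over PBS in macrophage-like cells, and 5 (8) pairs of member and library had at least 50% of UMIs in 1 cell. Ccl3 for MPG-HD over G-HD in Schwann-like cells then reversed to 1.35 (0.167). With equal weight per cell, 1 (3) was lower for MPG-HD over PBS in microglia-like cells and 0 (1) for MPG-HD over G-HD in macrophage-like cells. With equal weight per cluster, in macrophage-like cells 1 (0) was higher for G-HD over PBS, 1 (2) higher and 1 (0) lower for MPG-HD over PBS. With cells thinned to 1000 UMIs, for G-HD over PBS 0 (1) were lower in macrophage-like cells, and 1 (2) higher and 1 (2) lower in microglia-like cells. For MPG-HD over G-HD then 0 (1) were lower in macrophage-like and 1 (2) in microglia-like cells, and 4 (8) pairs had at least 50% of UMIs in 1 cell. With a minimum of 50 UMIs, 1 (2) was higher for G-HD over PBS in microglia-like cells. With no minimum, in macrophage-like cells 3 (1) were lower for G-HD over PBS, 1 (0) for MPG-HD over PBS and 2 (1) for MPG-HD over G-HD, and 1 (0) was higher for MPG-HD over PBS in microglia-like cells. At 2-fold, 1 (2) was higher and 0 (2) lower for G-HD over PBS and 1 (3) lower for MPG-HD over PBS in microglia-like cells, and 1 (2) was higher for MPG-HD over PBS and 0 (1) lower for MPG-HD over G-HD in macrophage-like cells. Depth limits Ccl12, Ccl17, Ccl20 and Ccl22 most, at 2 to 160 UMIs per library.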
